A study of Mus musculus with 106 samples.

Results

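The genes described here are the mouse cytochrome P450 genes that remain once several well-studied ones are set aside. They were chosen by name: protein-coding genes whose symbol starts with Cyp and a digit, leaving out the Cyp3a and Cyp2c genes, Cyp7a1, Cyp7b1, Cyp8b1, Cyp27a1, Cyp51, Cyp4a10 and Cyp4a14. The rule gave 68 genes of 99 P450 genes and of 21887 protein-coding genes in all. The study followed chromatin in mouse liver after agonists of 2 kinds of nuclear receptor, the bile acid receptor FXR (agonist GW4064) and the oxysterol receptor LXR (agonists GW3965 and T0901317, here T09), in wild-type (WT) animals and in Foxa2 mutants (Foxa2-KO). ChIP-seq was given as 23 peak lists: 5 for Foxa2 (WT only), 4 for FXR, 6 for LXR and 8 for PPAR. ATAC-seq, which reads open chromatin, was given as 4 lists of regions gained with a ligand over its vehicle, 3 in WT and 1 in the mutant. No list carried read counts, so sequencing depth is unknown.

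The mutants carried floxed Foxa2 with an Alfp.Cre transgene (Foxa2loxP/loxP;Alfp.Cre), as spelled out for the PPAR samples, and the labels of the other assays give Foxa2-KO only. Animals were 8 to 12 weeks old for ATAC, Foxa2 and FXR, and 3 months old for LXR and PPAR, where the strain is given as C57BL/6. Labels of the ATAC, Foxa2 and FXR samples give ligand dosing 4 h before harvest by oral gavage. The LXR and PPAR samples carry no such label, and the series text gives 4 h and speaks of injection. The FXR groups had vehicle and GW4064 arms, the LXR groups vehicle, an agonist labelled GW with no number, and T09, and the PPAR groups vehicle, GW3965, T09 and GW4064, each in both genotypes. Foxa2 had WT vehicle, GW3965 and T09 groups and a separate WT vehicle and GW4064 pair. Each group stands as 1 list made from 1 to 3 samples, so no spread between animals can be given and no test over animals was possible. Every comparison below is a description. Where a count is of all 68 genes, the share of all protein-coding genes stands beside it or is said not to have been computed. For smaller groups that share is named as that of the list.

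Cytochrome P450 enzymes are haem proteins that insert oxygen into their substrates, with electrons passed on by P450 reductase or, in mitochondria, by ferredoxin. In liver, families CYP1 and CYP2 handle drugs, smoke products and other foreign compounds, CYP2J and CYP4 work on fatty acids and their signalling derivatives, and smaller families make or break down steroid hormones, vitamin D, retinoic acid and sterols. Many of them stand in tandem clusters of near copies. Foxa2 is a forkhead factor that opens liver chromatin, and FXR, LXR and PPAR bind DNA as partners of the retinoid receptor RXR. Reads from near copies (the Cyp2a, Cyp2b and Cyp2d genes, Cyp4a12a and Cyp4a12b) can be shared or lost, and how such reads were handled is not given in the sources used here.

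Promoter stretches that lay inside Foxa2 peaks are shown first, since these are the sites nearest to a start of transcription. They come from RefSeq (GRCm38.p6, the assembly behind mm10), 5′ to 3′ on the gene's strand, and stop short of the start site. The stretches upstream of Cyp2a12 (7:27028896-27029051, + strand) and Cyp2a22 (7:26939414-26939569, − strand) lay inside a Foxa2 peak in all 5 lists. Of 156 aligned bases 146 were identical (93.6%), and the 10 that differ are in capitals.
Cyp2a12: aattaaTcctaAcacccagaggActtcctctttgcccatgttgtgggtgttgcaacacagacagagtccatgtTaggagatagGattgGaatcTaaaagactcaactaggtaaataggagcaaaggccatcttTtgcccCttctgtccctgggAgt
Cyp2a22: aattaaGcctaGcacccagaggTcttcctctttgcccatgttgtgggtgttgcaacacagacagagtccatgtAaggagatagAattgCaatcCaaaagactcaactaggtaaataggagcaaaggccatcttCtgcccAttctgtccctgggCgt

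Cyp2j5, an epoxygenase of arachidonic acid, was the only gene with both a Foxa2 peak on its promoter (vehicle, GW3965 and T09) and an exact Foxa motif there. The motif TGTTTAC is in capitals in 4:96664172-96664369 (− strand).
Cyp2j5: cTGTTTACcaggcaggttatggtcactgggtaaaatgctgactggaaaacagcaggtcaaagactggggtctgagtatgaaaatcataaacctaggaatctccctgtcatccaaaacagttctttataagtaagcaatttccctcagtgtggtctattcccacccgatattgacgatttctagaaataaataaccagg

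Cyp2d9 (15:82452275-82452376, + strand) and Cyp2d40 (15:82764192-82764293, − strand) are members of the Cyp2d cluster. The Cyp2d9 stretch lay inside a Foxa2 peak with each of the 3 ligands and with neither vehicle, and the Cyp2d40 stretch inside a Foxa2 peak with GW3965. Both hold the same match to a direct repeat of AGGTCA spaced by 1 base, with up to 2 mismatches. It is the form known for PPAR and its relatives and is in capitals.
Cyp2d9: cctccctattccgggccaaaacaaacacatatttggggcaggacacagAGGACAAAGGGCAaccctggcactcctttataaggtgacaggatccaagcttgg
Cyp2d40: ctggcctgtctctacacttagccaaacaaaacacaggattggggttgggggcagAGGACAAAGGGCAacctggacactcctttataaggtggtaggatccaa

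Promoters of P450 genes were searched in full, from 250 bases before to 50 bases after each start, on both strands. The table held 60 such windows for 52 of the 68 genes, and 32851 over all genes. This direct repeat occurred in 7 of 60 windows (11.7%, against 3.86% of all promoters), those of Cyp2w1, Cyp2t4, Cyp2d10, Cyp2d9, Cyp2d40, Cyp4f16 and Cyp4f37. Cyp2d9, Cyp2d10 and Cyp2d40 held an identical match, as did Cyp4f16 and Cyp4f37, so these windows of near copies are not independent. The LXR form, a direct repeat of AGGTCA spaced by 4 bases with up to 3 mismatches, was found in 18 windows (30%, against 21.9%). The FXR form, an inverted repeat of AGGTCA spaced by 1 base with up to 2 mismatches, was found in 1 window (1.67%, against 1.14%), that of Cyp2d11. Either exact Foxa motif, TGTTTAC or TGTTTGC, was found in 4 windows (6.67%, against 8.48%), those of Cyp2j5, Cyp2ab1, Cyp2j8 and Cyp11a1. Foxa2 peaks covered 4 windows with vehicle (6.67%, against 0.931% of all promoters), 8 with GW3965 (13.3%, against 5.54%) and 7 with T09 (11.7%, against 2.85%). In the GW4064 experiment they covered 3 with vehicle (5%, against 0.904%) and 6 with the ligand (10%, against 2.42%). No peak of an FXR, LXR or PPAR list lay on any of the 60 windows, while those lists touched at most 0.785% of all promoters.

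Of the 68 genes, 57 had a peak centred inside the gene or up to 10 kb outside it in at least 1 of the 23 ChIP lists (83.8%, against 80% of all genes), the window used for every peak count below. Foxa2 accounted for most of them: 51 genes had a Foxa2 peak (75%, against 55.9%), and 18 of these had no peak of any other antibody. Peaks of other antibodies only were found at 6 genes (Cyp2a5, Cyp2b23, Cyp2s1, Cyp4a29, Cyp24a1 and Cyp27b1). The shares of all genes beside the 18 and the 6 were not computed, so neither is read as a trait of P450 genes. The 11 genes with no ChIP peak were Cyp2a4, Cyp2ab1, Cyp4a12a, Cyp4a12b, Cyp4f16, Cyp4f17, Cyp4f40, Cyp2r1, Cyp11a1, Cyp11b1 and Cyp11b2. Windows of 25 genes overlapped the window of another of the 68, so neighbours can count the same peak. The genes were about as long as others (median 15.3 kb, against 17.2 kb).

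**Figure D1:**
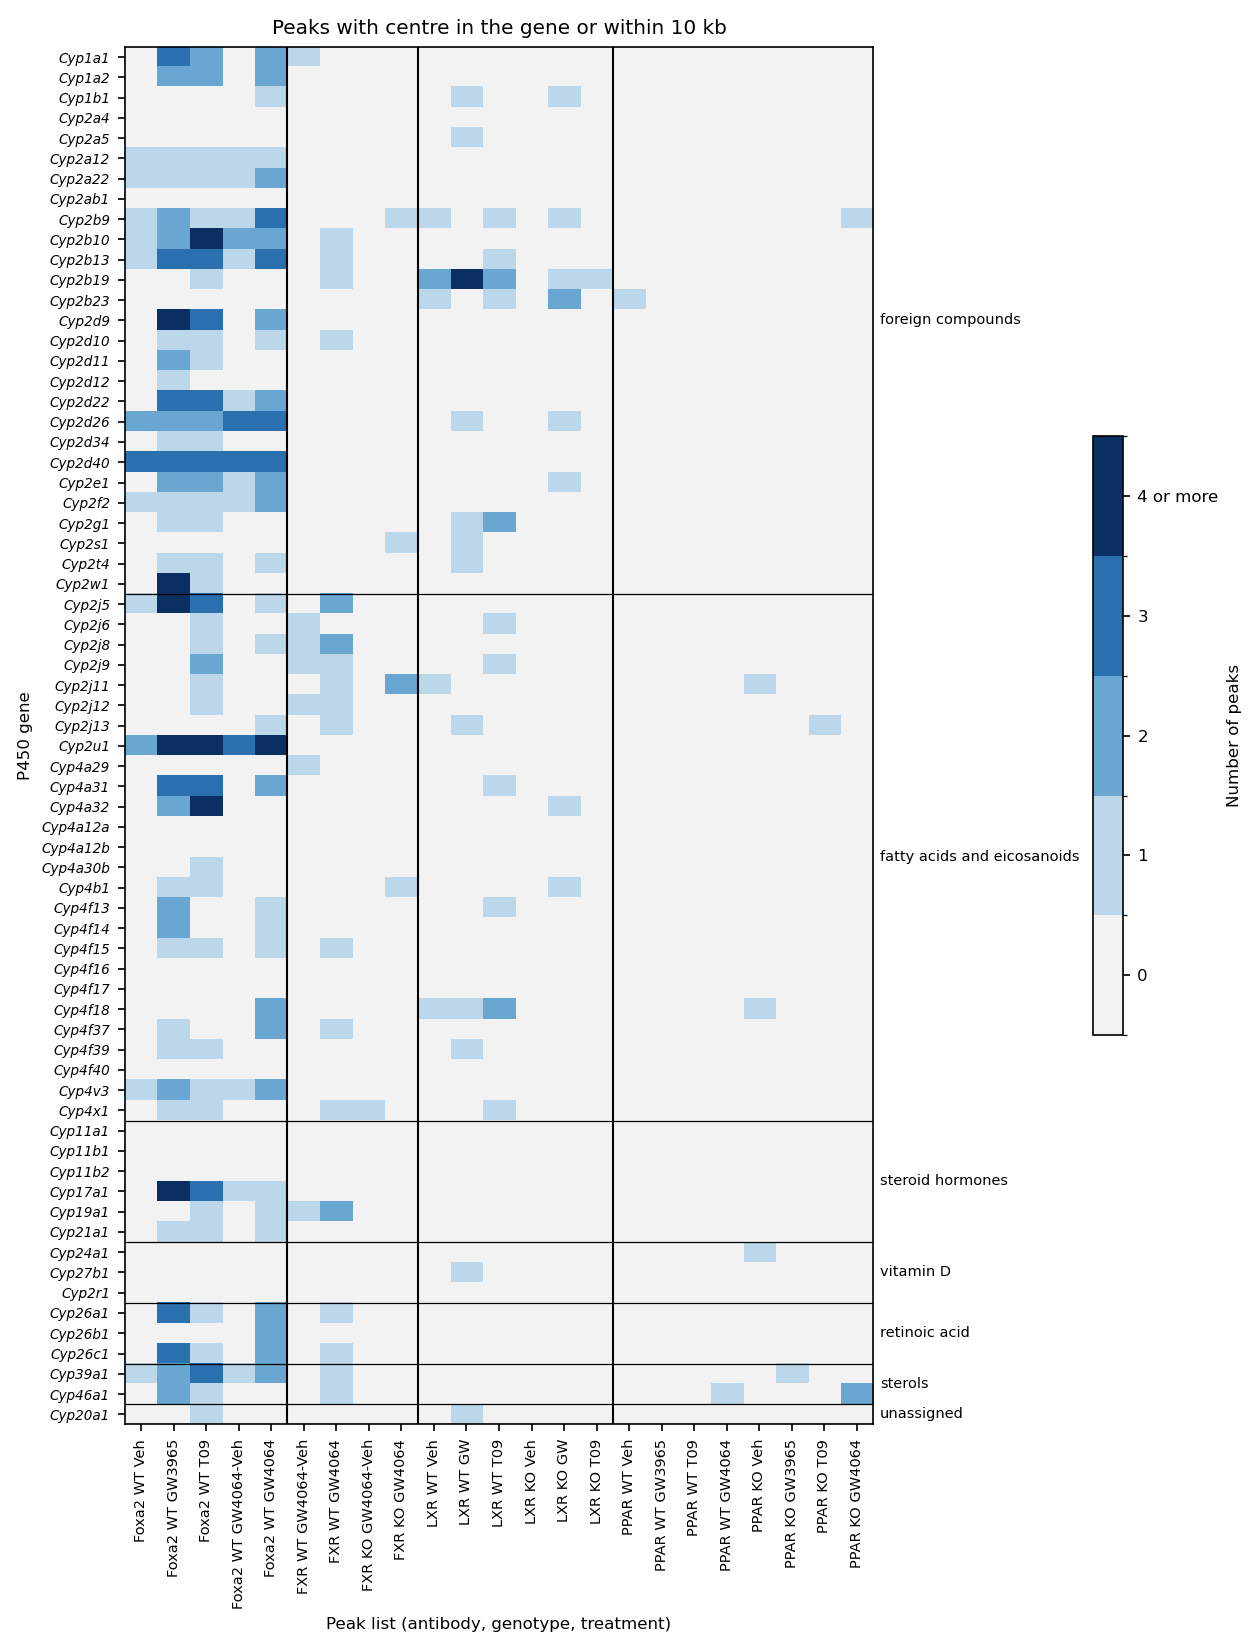
Number of peaks (colour, capped at 4 or more) centred inside the gene or up to 10 kb outside it, for each of the 68 P450 genes (rows, grouped by role) in each of the 23 ChIP lists (columns, grouped by antibody). Foxa2 columns are filled for 51 genes, and the PPAR columns of WT for 2.

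Foxa2 peaks lay near 12 of the 68 genes with vehicle (17.6%, against 12.1% of all genes). They lay near 38 with GW3965 (55.9%, against 36.9%) and near 43 with T09 (63.2%, against 39.2%). In the separate GW4064 experiment the counts were 14 with vehicle (20.6%, against 17.8%) and 34 with the ligand (50%, against 38.8%). In all 5 Foxa2 lists the P450 share stood above the share of all genes, by a margin that is not tested. With a window of 5 kb this turned for the vehicle of GW4064, where 10 genes remained (14.7%, against 15.1%). The lists differ in length, with 4348 and 7306 peaks for the vehicles and 21245, 25318 and 22666 for GW3965, T09 and GW4064. Taking only as many first entries of each ligand list as its vehicle list holds, the counts were 14 with GW3965 (20.6%, against 12%), 18 with T09 (26.5%, against 11.8%) and 21 with GW4064 (30.9%, against 18.3%). At equal length, then, 14, 18 and 21 genes stood beside 12, 12 and 14 with vehicle. The order of entries in the Foxa2 lists is as deposited, and what it ranks by is not given in the sources used here.

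**Figure D2:**
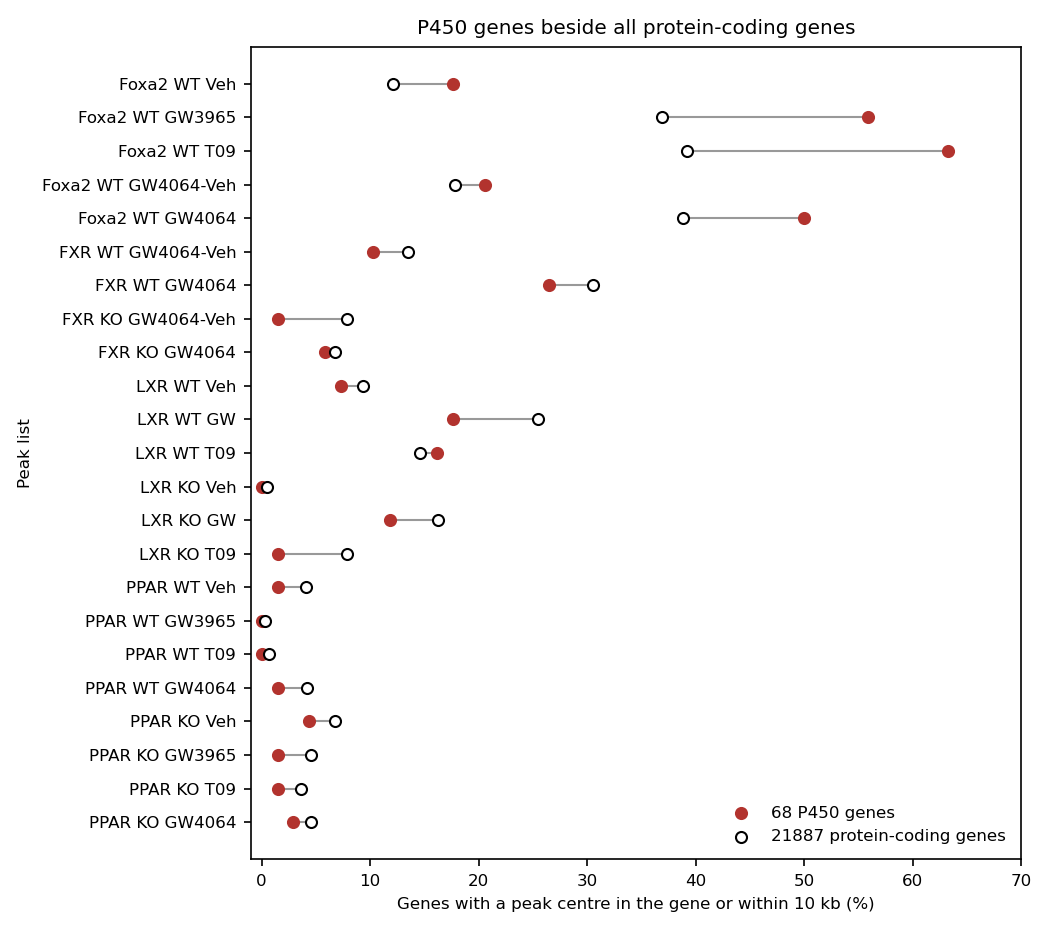
Percent of the 68 P450 genes (filled) and of 21887 protein-coding genes (open) with a peak centred inside the gene or up to 10 kb outside it, by list. The filled point lies to the right in all 5 Foxa2 lists, and among the 18 other lists it does so for LXR in WT with T09 only.

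Genes with a vehicle peak kept one with the ligand. Every one of the 12 genes with a Foxa2 peak under vehicle also had one with GW3965 (both, 12.1% of all genes), and 26 had one with GW3965 but not vehicle (38.2%, against 24.9%). The same 12 also had one with T09 (12% of all genes in both), and 31 had one with T09 but not vehicle (45.6%, against 27.2%). None had one with vehicle and not GW3965 (0.0411% of all genes) or not T09 (0.119%). With GW4064 all 14 vehicle genes recurred (15.4% of all genes in both), and 20 were added (29.4%, against 23.4%), while 0 were found with vehicle only (2.35% of all genes). The LXR agonists shared 34 genes (50%, against 28.7%), with 4 for GW3965 only (8.27% of all genes) and 9 for T09 only (10.5%). At the level of single peaks, all 16 vehicle peaks at P450 genes overlapped a GW3965 peak and a T09 peak (98.8% and 97.1% of all vehicle peaks did), and 19 of 21 vehicle peaks overlapped a GW4064 peak (90.5%, against 64.6%). Peaks with GW3965 overlapped T09 peaks in 46 of 72 (63.9%, Wilson 95% interval 52.4 to 74%, for counting error only, against 58.1%).

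Merged over lists, Foxa2 peaks at P450 genes formed 111 sites, of which 13 lay near more than 1 of the genes. Sites present in all 5 lists numbered 14 (12.6%, against 6.58% of all Foxa2 sites), those with all 3 ligands and neither vehicle 13 (11.7%, against 8.02%), and those with both LXR agonists alone 13 (11.7%, against 5.96%). Sites in 1 list only made up 57 (51.4%, against 68.6%). Only 1 site, downstream of Cyp2d26 at 15:82784647-82784759, was listed under vehicle and with no ligand (0.901%, against 4.71%). Of 188 gene and peak pairs with known strand, 85 were upstream, 66 in the gene body and 37 downstream, and 36 centres were within 1 kb of a start site. A site found in several lists counts once for each list here, and the same split over all genes was not computed.

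**Figure D3:**
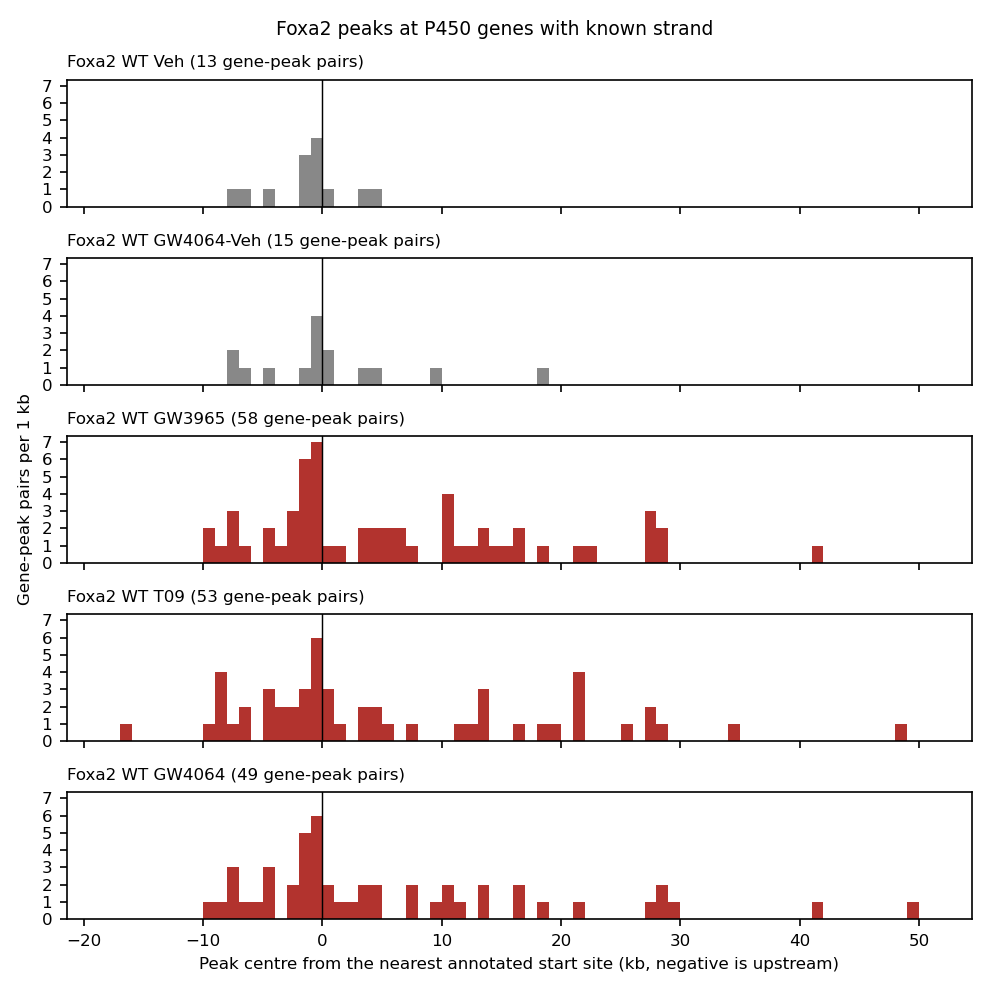
Distance of Foxa2 peak centres from the nearest annotated start site (kb, negative upstream) at P450 genes with known strand, counted in 1 kb bins, 1 panel per list with vehicles in grey and ligands in red. With vehicle 5 of 13 pairs lie within 1 kb of a start, and with GW3965 8 of 58, while the ligand panels reach past 40 kb into long genes.

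Genes known for liver expression carried most of the constant Foxa2 peaks. Of 26 such genes, 10 had a Foxa2 peak in every one of the 5 lists (Cyp2a12, Cyp2a22, Cyp2b9, Cyp2b10, Cyp2b13, Cyp2d26, Cyp2d40, Cyp2f2, Cyp4v3 and Cyp39a1), where 9.98% of all genes and 16.2% of the 68 did. Of 16 genes known mainly from other organs, none had one in every list, and of the 26 in neither list Cyp2u1 did. Under vehicle the numbers were 11 of 26, 0 of 16 and 1 of 26 (12.1% of all genes had a peak). With GW3965 they were 21, 6 and 11 (36.9% of all genes), with T09 19, 8 and 16 (39.2%) and with GW4064 20, 5 and 9 (38.8%). The 16 genes listed under other organs had Foxa2 peaks in ligand lists only, at 6, 8 and 5 of 16. These shares lay above that of all genes with GW3965 and T09 and below it with GW4064. Cyp17a1, a steroid hormone enzyme placed in neither list, had 1 Foxa2 peak with the vehicle of GW4064. The absence under vehicle thus depends on how genes were listed. The lists by organ were drawn from general knowledge, and 5 liver genes had no Foxa2 peak at all (Cyp2a4, Cyp2a5, Cyp2r1, Cyp4a12a and Cyp4a12b).

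Among enzymes of foreign compounds (27 genes), 22 had a Foxa2 peak in some list (55.9% of all genes) and 8 in every list (9.98%). Cyp2f2, which activates naphthalene in lung and liver, held the best placed Foxa2 peak of all 68 genes in each list. It stood at entry 72 with vehicle and at 71 with GW3965 and 45 with T09. In the GW4064 experiment it stood at entry 30 with vehicle and 38 with the ligand. The peak lay in the gene body (7:27124379-27124654 with vehicle), 4561 bp from the start, and its width ran from 271 to 378 bp. A second Cyp2f2 peak, 150 bp upstream of the start at 7:27119762-27119848, was listed with GW4064 only, near the end of the list at entry 21504.

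Cyp2a12 and Cyp2a22, members of a family of drug and steroid hydroxylases, had their Foxa2 peak on the promoter stretches shown above. For Cyp2a12 the entries were 1051 with vehicle, 840 with GW3965, 574 with T09, 932 with the second vehicle and 311 with GW4064. For Cyp2a22 they were 1595, 1172, 889, 875 and 269 in the same order. Peak centres lay 66 to 89 bp upstream of the start in both genes in all 5 lists. Cyp2a4 and Cyp2a5 of the same cluster had no Foxa2 peak.

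Among the Cyp2b genes, Cyp2b10, Cyp2b13 and Cyp2b9 each had a distal Foxa2 site in all 5 lists. At Cyp2b10 it lay 7911 bp upstream of the start (7:25889643-25889852 with vehicle), at Cyp2b13 6265 bp and at Cyp2b9 4301 bp upstream. Cyp2b10 also had a site in the gene body near 7:25916195-25916404 in every list but the first vehicle. Cyp2b9 had a peak in more lists than any other of the 68, 10 of 23, including 1 FXR, 3 LXR and 1 PPAR list, but those 5 peaks were 3 to 87 bp wide and lay at 5 different places. Cyp2b19 and Cyp2b23, known from skin or little known, had 1 and 0 Foxa2 peaks.

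In the Cyp2d cluster all 8 genes had a Foxa2 peak with GW3965 (36.9% of all genes), 7 with T09 (39.2%), and 2 in every list (9.98%), and neighbours there share some peaks. Cyp2d26 had 2 sites in all 5 lists, at the start (15:82794285-82794525 with vehicle, entry 1159) and 1979 bp upstream. The start site peak stood at entry 704 with GW3965, 609 with T09, 443 with the second vehicle and 786 with GW4064. Cyp2d40 had 3 peaks in each of the 5 lists. Cyp2d9, a male-biased steroid hydroxylase, had no vehicle peak, 4 peaks with GW3965, 3 with T09 and 2 with GW4064. Cyp2d10 had 1 peak with each ligand, and that with GW4064 was 10 bp wide. Cyp2e1, the ethanol-oxidising enzyme, had a site 7047 bp upstream (7:140756561-140756983 with GW3965, entry 1672) with every ligand and the second vehicle, but not the first.

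Cyp1a1 and Cyp1a2, targets of the dioxin receptor, lie head to head, and each ligand list, but neither vehicle list, held a Foxa2 peak inside the annotated Cyp1a1 gene body, at its edge facing Cyp1a2, so that it counts for both. With GW3965 it lay at 9:57688252-57688381 (entry 20826 of 21245), and with T09 at 9:57688441-57688801, 4966 bp upstream of Cyp1a2. With GW4064 it was 17 bp wide, at 9:57688410-57688426 (entry 21991 of 22666). None of these peaks overlapped another. Such a pattern by gene, a peak with each of the 3 ligands and neither vehicle, was found at 10 of the 68 (14.7%, against 8.85% of all genes): Cyp1a1, Cyp1a2, Cyp2d9, Cyp2d10, Cyp2t4, Cyp4a31, Cyp4f15, Cyp21a1, Cyp26a1 and Cyp26c1. The ligand lists are also the longer ones, as given above, and the part of length in this pattern was not tested.

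Among enzymes of fatty acids and eicosanoids (26 genes), 20 had a Foxa2 peak in some list (55.9% of all genes) and 2 in every list (9.98%). Cyp2u1, a fatty acid hydroxylase, had 2 such sites outside the gene body. The first, 3:131283094-131283598 with vehicle, lay 6893 bp from the gene and stood at entry 487 with vehicle and at 96, 305, 852 and 187 with GW3965, T09, the second vehicle and GW4064. The second, 3:131312372-131312874, lay 8215 bp from the gene on the other side. Cyp4v3, an omega-hydroxylase, had 1 site in all 5 lists in its gene body (8:45329499-45329839 with vehicle, entry 2196). Cyp4a32 had peaks on its promoter with both LXR agonists and in no other Foxa2 list. Of the 7 Cyp2j genes, 1 had a Foxa2 peak with GW3965 (Cyp2j5, against 36.9% of all genes) and 6 with T09 (against 39.2%).

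Of the 6 steroid hormone enzymes, best known from adrenal and gonad, 3 had a Foxa2 peak in some list (Cyp17a1, Cyp19a1 and Cyp21a1, against 55.9% of all genes). Cyp17a1, the 17-hydroxylase, had 0 with vehicle, 4 with GW3965, 3 with T09, 1 with the second vehicle and 1 with GW4064. The site at 19:46662235-46662486 recurred in the last 4 of these. None of the 3 vitamin D enzymes had a Foxa2 peak. All 3 retinoic acid hydroxylases did, in ligand lists only. Cyp26a1 and Cyp26c1, neighbours that break down retinoic acid, shared 3 sites with GW3965, at 19:37695743-37696075, 19:37696369-37696714 and 19:37702366-37702872. The first recurred with GW4064, the second in no other list, and the third with all 3 ligands. Cyp39a1, an oxysterol hydroxylase of the bile acid route, had a site in its body in all 5 lists (17:43684714-43684969 with vehicle). Its entry was 1298 with vehicle, 1800 with GW3965, 1677 with T09, 309 with the second vehicle and 994 with GW4064.

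FXR peaks lay near 7 of the 68 genes in WT with vehicle (10.3%, against 13.5% of all genes) and near 18 with GW4064 (26.5%, against 30.5%). In the mutant they lay near 1 with vehicle (1.47%, against 7.84%) and 4 with GW4064 (5.88%, against 6.8%). These shares stood below those of all genes in all 4 lists. The WT GW4064 list held 22705 peaks and the mutant list 3901, and among the first 3901 WT peaks 0 were near a P450 gene (8.54% of all genes). As with Foxa2, what the order of entries in the WT FXR lists ranks by is not given in the sources used here. The mutant FXR lists carry q up to 0.015 and the WT lists carry no q, so the genotypes cannot be set at a common threshold. By gene, 4 had a WT peak with both GW4064 and vehicle (5.88%, against 8.07% of all genes) and 3 with vehicle only (4.41%, against 5.43%). With GW4064, 1 had a peak in both genotypes (Cyp2j11, against 3.92% of all genes), 17 in WT only (25%, against 26.6%) and 3 in the mutant only (4.41%, against 2.87%). None of the 20 WT GW4064 peaks overlapped a WT vehicle peak or a mutant GW4064 peak (0%, Wilson 95% interval up to 16.1%, against 1.98% and 0.551% of all peaks). All 32 FXR sites at these genes were seen in 1 list each, 26 in WT and 6 in the mutant. The same share over all FXR sites was not computed.

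Each of the 7 Cyp2j genes had an FXR peak in a WT list (35.9% of all genes, and 21 of the 68, 30.9%), and Cyp2j6 and Cyp2j9 shared 1 of these peaks. The Cyp2j gene bodies are long, from 24100 to 63448 bp, where the median of the 68 was 15.3 kb. The part of gene length in this count was not tested. The best placed with GW4064 was in Cyp2j8 at 4:96491884-96492135, entry 4106, 252 bp wide. With vehicle the best placed was near Cyp1a1, at entry 1928 and 13 bp wide. In the mutant the best placed was near Cyp4x1, a brain enzyme, with vehicle (entry 98, 4:115134839-115134989, q = 0.0113 in the authors' deposited list), and near Cyp4b1 with GW4064 (entry 1703). FXR pairs at Cyp4x1 and Cyp39a1 had no known strand here, so their distance from a start site was not measured. Among the 31 pairs with known strand, no FXR peak centre was within 1 kb of a start site, and 18 were in gene bodies. The same split over all genes was not computed for FXR either. The FXR peak at 19:37702524-37702617 (entry 6564), near Cyp26a1 and Cyp26c1, was the only one of 20 to overlap a Foxa2 peak with GW4064 (5%, against 1.68% of all FXR peaks), by 37 bases.

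LXR peaks lay near 5 genes in WT with vehicle (7.35%, against 9.38% of all genes), 12 with GW (17.6%, against 25.5%) and 11 with T09 (16.2%, against 14.6%). In the mutant the numbers were 0 (against 0.489%), 8 (11.8%, against 16.3%) and 1 (1.47%, against 7.85%). Over all lists of a genotype, 21 genes had an LXR peak in WT (30.9%, against 36.3%) and 8 in the mutant (11.8%, against 21.5%). List lengths ran from 161 peaks (mutant vehicle) to 14219 (WT with GW). None of the 15 WT GW peaks overlapped a mutant GW peak (0%, Wilson 95% interval up to 20.4%, against 2.23% of all peaks), and 3 genes had a peak in both (7.87% of all genes). Of 42 LXR sites, 2 were in more than 1 list, and the same share over all LXR sites was not computed. They were 1 at Cyp4f18 in WT with vehicle and GW, and 1 in the body of Cyp2b19 in 3 lists.

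That Cyp2b19 site lay at 7:26761281-26761367 with vehicle (entry 2433), at 7:26761077-26761388 with GW (entry 1338) and at 7:26761276-26761422 in the mutant with T09 (entry 2454). Cyp2b19, an epoxygenase of skin, had LXR peaks in 5 of the 6 lists, up to 4 in 1 list. The best placed LXR peaks in WT with GW were 5563 bp downstream of Cyp20a1, a P450 with no assigned substrate (entry 150, q = 0.00908 in the authors' deposited list), and near Cyp2t4 (entry 169, 6436 bp downstream). Next came Cyp2j13 (entry 417) and Cyp27b1, the enzyme that activates vitamin D (entry 695, 4 bp wide). With T09 a peak in the body of Cyp4f13 stood at entry 129, and with vehicle one in Cyp2j11 at entry 393. In WT, 0 of 15 LXR peaks at these genes with GW overlapped a Foxa2 peak with GW3965 (against 0.76% of all peaks of that LXR list). With T09 in both assays it was 0 of 14 (against 2.22%).

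PPAR peaks were near 2 genes in any WT list (2.94%, against 8% of all genes) and 7 in any mutant list (10.3%, against 14.1%). In WT there was 1 gene with vehicle (1.47%, against 4.12% of all genes), 0 with GW3965 (against 0.274%), 0 with T09 (against 0.722%) and 1 with GW4064 (1.47%, against 4.23%). In the mutant there were 3 with vehicle (4.41%, against 6.73%), 1 with GW3965 (1.47%, against 4.56%), 1 with T09 (1.47%, against 3.64%) and 2 with GW4064 (2.94%, against 4.54%). In WT the peaks were 2 bp wide in Cyp2b23 with vehicle and 16 bp wide near Cyp46a1 with GW4064. In the mutant Cyp46a1, the brain cholesterol hydroxylase, had a 121 bp peak in its body with GW4064 (12:108337048-108337168, entry 359). Cyp24a1, which inactivates vitamin D, had a 5 bp peak with vehicle at entry 289. Cyp39a1 had an 11 bp peak with GW3965 and Cyp2j13 a 51 bp peak with T09. All 10 PPAR sites were in 1 list each, and the same share over all PPAR sites was not computed. In the authors' deposited PPAR lists q reached 0.07.

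Accessibility gained with a ligand touched 40 of the 68 gene bodies in WT with GW3965 (58.8%, against 43.6% of all genes), 32 with T09 (47.1%, against 43.2%) and 27 with GW4064 (39.7%, against 43.8%). In the mutant with GW4064 it touched 25 (36.8%, against 48%). Over the summed length of the 68 bodies the gained part was 3% with GW3965 (1.21% for all genes), 1.49% with T09 (0.883%), 1.77% with GW4064 (1.18%) and 0.671% in the mutant with GW4064 (1.01%). By summed length the P450 share stood above that of all genes in the 3 WT lists and below it in the mutant list. By genes touched it was below in WT with GW4064 as well. The mutant list was the longest, with 82561 regions against 60528 for GW4064 in WT.

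At least 25% of the body was gained at 4 genes with GW3965 (5.88%, against 2.26% of all genes), 2 with T09 (2.94%, against 1.54%) and 3 with GW4064 (4.41%, against 1.94%). In the mutant there were 0 (against 1.66%), and the highest was Cyp2u1 at 23.6%. Cyp2f2 was the only gene past this limit with all 3 ligands, at 35.3% with GW3965, 39.8% with T09 and 34.9% with GW4064, and it lay at 0% in the mutant with GW4064. Its main region, 7:27127346-27131550 with GW3965, had a fold over vehicle of 1.29 in the authors' deposited list, and 7:27127293-27131903 with T09 had 1.2. These regions lay downstream of the Foxa2 peak in the gene body and did not overlap it.

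Cyp2d9 had the highest coverage of all with GW3965, 54.5%, and 0% in the other 3 lists. Its region ran from the gene body past its end (15:82454401-82459639, entry 71, fold 1.56 in the authors' deposited list) and held 2 Foxa2 peaks. Cyp2d10 reached 39.8% with GW3965 and 32% with GW4064, against 0% with T09 and in the mutant. Cyp4a32 reached 25.5% with GW3965, with its strongest region at entry 31 (4:115606322-115608395, fold 2.32 in the authors' deposited list), 9.66% with T09 and 0% with GW4064. Cyp17a1 reached 38.5% with T09, in a region that held a Foxa2 peak (19:46667204-46669421, entry 508), and 0% with GW3965 and GW4064. Cyp26a1 reached 34.4% with GW4064, 21.4% with GW3965, 7.61% with T09 and 0% in the mutant. Its region lay over the start of the gene and covered the upstream Foxa2 site (19:37694140-37698550 with GW3965, entry 145). At a limit of 50% of the body, 1 gene remained with GW3965 (1.47%, against 0.955% of all genes), and 0 with T09 or GW4064 (against 0.681% each), so that for T09 and GW4064 the share was below that of all genes.

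**Figure D4:**
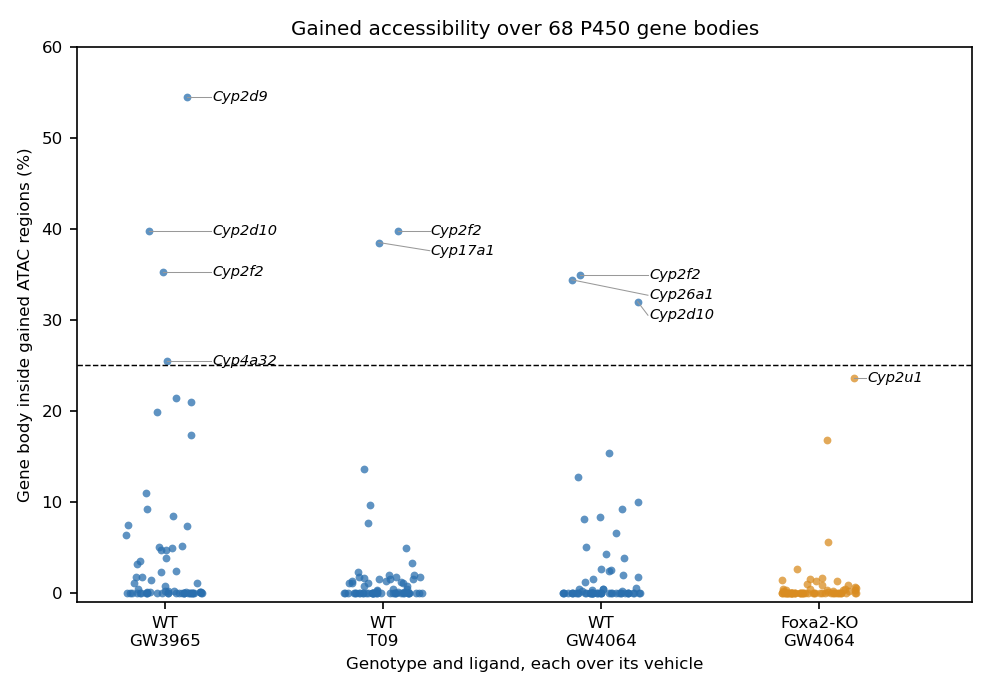
Percent of each of the 68 P450 gene bodies inside regions of gained accessibility, by genotype and ligand, 1 point per gene, with the dashed line at 25%. Above the line are 4, 2 and 3 genes in the WT lists and 0 in the mutant list, where Cyp2u1 is highest at 23.6%.

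Foxa2 peaks at P450 genes overlapped gained regions by at least 1 base in 23 of 72 with GW3965 (31.9%, Wilson 95% interval 22.3 to 43.4%, against 25% of all Foxa2 peaks). With T09 it was 3 of 68 (4.41%, interval 1.51 to 12.2%, against 3.89%) and with GW4064 7 of 57 (12.3%, interval 6.08 to 23.2%, against 5.84%). These intervals are for counting error only and were not used as a test, since neighbouring peaks of 1 gene are not independent. The Cyp2a12 promoter peak lay in a gained region with GW3965 (7:27028543-27029267, entry 953) and the Cyp2a22 promoter peak in one with GW4064 (7:26938725-26940352). The distal Cyp2b10 peak lay in a region gained with GW4064 at entry 454.

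Genes that serve P450 enzymes, 29 in all, had Foxa2 peaks at 14 with vehicle (12.1% of all genes), 23 with GW3965 (36.9%) and 22 with T09 (39.2%). They had them at 13 with the second vehicle (17.8%) and 17 with GW4064 (38.8%). In every Foxa2 list 12 had one (9.98% of all genes): the electron donors Por, Cyb5a and Cyb5b, the haem synthesis genes Alas1, Uros and Cpox, and the regulators Arnt, Nr1i2, Nr1i3, Hnf4a, Ppara and Nr1h4. FXR peaks were at 5 with vehicle (13.5% of all genes) and 12 with GW4064 (30.5%) in WT, and at 1 (7.84%) and 0 (6.8%) in the mutant. Alas1, the first enzyme of haem synthesis, had 75.4% of its body gained with GW3965, 88.4% with T09 and 74.1% with GW4064 in WT, and 0% in the mutant with GW4064. Past 25% were 5 of the 29 with GW3965 (2.26% of all genes), 2 with T09 (1.54%), 4 with GW4064 (1.94%) and 1 in the mutant (1.66%, Hmox1, a haem breakdown enzyme). Por, the P450 reductase, reached 53.7% with T09.

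As a check of tissue, Foxa2 peaks in every list were found at 8 of 12 hepatocyte markers, 4 of 8 sinusoidal endothelial markers, and 0 of 8 each for Kupffer cells, stellate cells and cholangiocytes (9.98% of all genes). Whole liver was used, and a peak in fewer cells cannot be told apart from a weaker peak in more cells. Regions found in lists of all 4 antibodies, 102 in number, lay in the window of none of the 68 genes. The share of all genes with such a region was not computed, so this is not read as a trait of P450 genes.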

How the data were processed

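The 27 deposited peak lists of ATAC-seq and ChIP-seq in mouse liver were used. Not used here were 37 RNA-seq samples and 8 mutant ATAC samples from the LXR agonist arms. Reads were handled with BWA, STAR, RSEM and edgeR on mm10, as the submitters' processing notes name them, and their versions are not given in the sources used here. Per the series text, PeakSeq called ChIP peaks over input and ATAC regions of the ligand over vehicle. The authors deposited q-values in 19 lists, each sorted by q. The other 8 were taken in order of entry. The fold (enrichment ratio) and the −log10 of p are the authors' own as deposited, and the latter was not used. Deposited q reached 0.015 in mutant FXR lists and 0.05 in LXR lists. Blank entries in the mutant FXR lists (28147 with vehicle, 7254 with GW4064) were left out. Positions are 1-based as in mm10, and genes and promoters come from RefSeq tables of GRCm38.p6.

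A gene had a peak when the peak's centre lay inside the gene or up to 10 kb outside it, and lists were compared by overlap of at least 1 base. No test was run, since each group is 1 list. The gene counts, coverage and overlap steps were tested on simulated data. Named genes were the 12 with a peak in the most ChIP lists, those with 25% of the body gained, the best placed gene of each list, those in the first 1000 entries of a WT FXR or LXR list, and cluster neighbours sharing such a peak. Others were chosen after their values were seen. Members and lists were chosen with earlier results of these data known. Alternatives were windows of 5 kb, a stricter threshold, any base in the window, peaks over 20 bp, exclusion of regions of all 4 antibodies, other coverage limits, overlap of at least 50% of the shorter peak and, chosen after seeing the data, lists of equal length. Software was matplotlib 3.10.9, scipy 1.17.1, pandas 2.3.3, numpy 2.4.6 and python 3.11.15.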

Additional observations from a re-analysis of the deposited data

How the results depend on the processing

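No paired analysis was possible because each group is 1 list with its replicates pooled, and leaving out a replicate was not possible for the same reason. With other windows, thresholds and widths, all counts of genes with a Foxa2 peak stayed within 1.5 times the reported ones, though within 5 kb the share for the vehicle of GW4064 was below that of all genes (14.7%, against 15.1%), while 23 of 90 values in all moved further, and the cause was not tested. The stricter threshold was q at most 0.01, or the first 50% of the entries where q is absent. FXR genes then numbered 2 in WT with vehicle (2.94%, against 8% of all genes) and 7 with GW4064 (10.3%, against 19%). In the mutant they numbered 0 with vehicle (against 0.142%) and 1 with GW4064 (1.47%, against 3.9%). LXR genes numbered 1 in WT (1.47%, against 0.603%), the opposite order to the reported one, and 0 in the mutant (against 0.749%). PPAR genes numbered 0 in WT (against 0.397%) and 0 in the mutant (against 0.649%). Genes with 25% gained with GW3965 numbered 2 (2.94%, against 1.16%). Within 5 kb, FXR in the mutant with GW4064 gave 2 genes (2.94%, against 5.67% of all genes) and PPAR in WT 1 (1.47%, against 6.57%). With peaks over 20 bp, FXR in the mutant with GW4064 gave 2 (2.94%, against 4.72% of all genes). PPAR gave 0 in WT (against 5.6%) and 3 in the mutant (4.41%, against 9.27%), and LXR in WT stood at 27.9% against 26.8%. At a limit of 10% of the body, genes numbered 9 with GW3965 (13.2%, against 5.69% of all genes) and 5 with GW4064 (7.35%, against 5.35%). In the mutant with GW4064 they numbered 2 (2.94%, against 4.13%). At 50% they numbered 1 with GW3965 in WT (1.47%, against 0.955% of all genes), 0 with T09 and 0 with GW4064 (against 0.681% each). The last pair stood below the share of all genes, where the reported counts were above it. Over the body plus 10 kb, 1 gene remained in WT with GW3965 (1.47%, against 1.07%) and 1 with GW4064 (1.47%, against 0.658%). With overlap of at least 50% of the shorter peak, 0% of FXR peaks lay on Foxa2 peaks with GW4064 (1.46% of all FXR peaks). At equal list length, chosen after seeing the data, Foxa2 genes numbered 14 with GW3965 (20.6%, against 12% of all genes) and 18 with T09 (26.5%, against 11.8%). With GW4064 they numbered 21 (30.9%, against 18.3%), and FXR genes in WT with GW4064 0 (against 8.54%). Depth is unknown, so a gene without a peak is not shown to lack binding, and many FXR, LXR and PPAR peaks are a few bases wide.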
